A study of Homo sapiens with 4 samples.

Results

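YTHDF1, YTHDF2 and YTHDF3 are the cytoplasmic paralogs of the YTH family, and their own transcripts were followed here in RNA recovered with an antibody against the YTHDF3 protein. The genes were taken by symbol, and the 3 genes were 3 of the 3905 genes that appear in at least 1 of the 2 deposited tables. RNA immunoprecipitation sequencing (RIP-seq) compares RNA that comes down with a protein (IP) with RNA taken before precipitation (input). There were 4 libraries, namely an IP and an input from SiHa, an established human cervical carcinoma line, and an IP and an input from SiHa cells labelled as YTHDF3 knockout. Each group was 1 library, so no value below has a replicate error, no difference has a replicate check, and no test was made. In the knockout, the protein that the antibody is against is the product of the targeted gene. Neither the way the gene was disrupted nor whether the knockout line is 1 clone is stated by the labels, and a precipitation with an unrelated antibody was not analysed here.

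As background, YTHDF proteins bind N6-methyladenosine (m6A), a common internal mark of mRNA, through a C-terminal YTH domain that is closely similar in the 3 paralogs. YTHDF2 is best known for bringing the CCR4-NOT deadenylase to marked transcripts, so that they decay. YTHDF1 and YTHDF3 have been linked to translation through initiation factors, and YTHDF3 also to decay together with YTHDF2, while other work holds that the paralogs act largely alike. The assay reads the transcripts of these genes and says nothing of the amounts of their proteins.

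The tables hold only genes that passed the authors' thresholds for enrichment. The SiHa table lists 3648 genes, 27.0% of the 13529 genes tested, and the table of the knockout lists 2340 genes, 21.2% of 11034. Of the SiHa genes, 2083 (57.1%) are also in the knockout table. Against these shares, 3 of 3 YTHDF genes were listed in SiHa and 0 of 3 in the knockout. A gene outside a table was either not tested or did not pass, and its levels there are unknown. The IP columns were identified by the lack of the word input in their names, and their lanes do not match the sample titles, so IP levels carry that doubt. Total reads and the unit of the levels are unknown as well, so no counting interval is given. Whether levels were corrected for transcript length is not known, so IP and input are compared within a gene. Where genes are placed or matched by level below, this describes their position in the table and not an order of abundance. Of 14 markers of epithelial and squamous cells, 7 were listed in SiHa, namely KRT17, KRT8, KRT18, CDH1, EPCAM, SFN and EGFR, and 1, KRT17, in the knockout. KRT8, KRT18 and EPCAM mark simple epithelium, and CDH1 and EGFR are not specific to squamous cells. Of 15 markers of fibroblasts, endothelium, leukocytes and neurons, 1 was listed, the neuronal MAP2, in both tables. The adjusted p-value of MAP2 in the authors' deposited tables was 0.0968 for SiHa and 0.0182 for the knockout. KRT5, KRT14 and TP63, which define basal squamous cells, were in neither table.

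YTHDF3 (ENSG00000185728), the gene targeted by the knockout and the source of the precipitated protein, lies on chromosome 8, positions 63168553 to 63212788, in the RefSeq annotation of GRCh38.p14. In SiHa its transcript stood at 11.7 in the input and at 25.8 in the IP, an IP to input ratio of 2.20. The IP library was the higher one, which being listed in SiHa nearly requires. The authors' deposited table gives this as a log2 fold of 2.14, or 4.41-fold, with a p-value of 6.5e-06 and an adjusted p-value of 5.96e-05. That fold includes a constant added to every gene of the table, 1.01 on the log2 scale in SiHa and 0.81 in the knockout. These p-values come from a pair of libraries, and cannot carry a spread between cultures. YTHDF3 stood 1626th of 3648 by fold, 0.10 above the table's median log2 fold of 2.04, and 1414th by p-value. Its levels were also near the middle of the listed genes, 1.22 times the median IP level and 1.10 times the median input level. The transcript of the antibody's own target was thus listed with a fold close to that of the typical listed gene.

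YTHDF1 (ENSG00000149658) lies on chromosome 20, positions 63195429 to 63216131 of GRCh38.p14. In SiHa it stood at 20.7 in the input and at 33.2 in the IP, a ratio of 1.61. The log2 fold in the authors' deposited table was 1.69, or 3.23-fold, with a p-value of 1.21e-05 and an adjusted p-value of 0.000106. This placed it 2606th by fold, and 28.6% of the listed genes had a lower one. By p-value it was 1478th, and its IP and input levels were 1.57 and 1.94 times the medians of the table.

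YTHDF2 (ENSG00000198492) lies on chromosome 1, positions 28736624 to 28769775 of GRCh38.p14. Of the 3 genes it had the smallest separation between IP and input, at 24.4 in the input and 31.8 in the IP, a ratio of 1.30. The authors' deposited table gives a log2 fold of 1.39, or 2.62-fold, a p-value of 0.000211 and an adjusted p-value of 0.00146. It was 3207th by fold, with 12.1% of listed genes below it, and 1852nd by p-value. Its input level was 2.29 times the median of the table and its IP level 1.50 times.

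**Figure D1:**
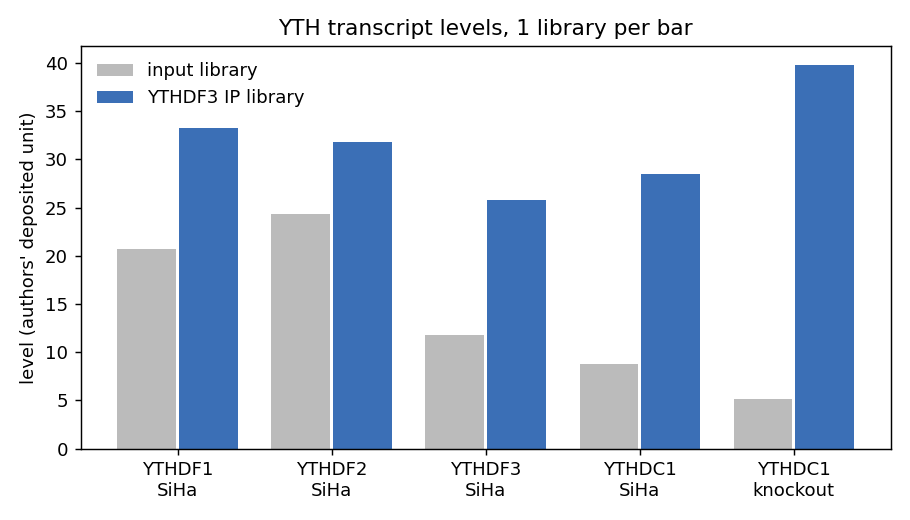
Level of each YTH transcript in the input and IP libraries, in the unit of the deposited tables; each bar is 1 library, so there are no error bars. Only listed genes are shown, so a higher IP bar in all 5 pairs is nearly set by the thresholds for listing. The ratios run from 1.30 for YTHDF2 to 2.20 for YTHDF3. For YTHDC1 they are 3.27 in SiHa and 7.76 in the knockout.

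By fold the order in SiHa was YTHDF3, YTHDF1 and YTHDF2. YTHDF3 exceeded YTHDF1 by 0.45 and YTHDF2 by 0.75 in the log2 fold of the authors' deposited table, and YTHDF1 exceeded YTHDF2 by 0.30. With 1 library per group it cannot be judged whether any neighbours in this order differ beyond their spread. The order does not depend on the constant, which is the same for every gene of a table. Without the constant, 1 of 3 genes, YTHDF3, had an IP level at least double the input level (log2 of 1 or more), a mark that 14.1% of tested SiHa genes passed while being listed. With an adjusted p-value of at most 0.05, which 21.8% of tested genes met while being listed, 3 of 3 stayed in the list.

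**Figure D2:**
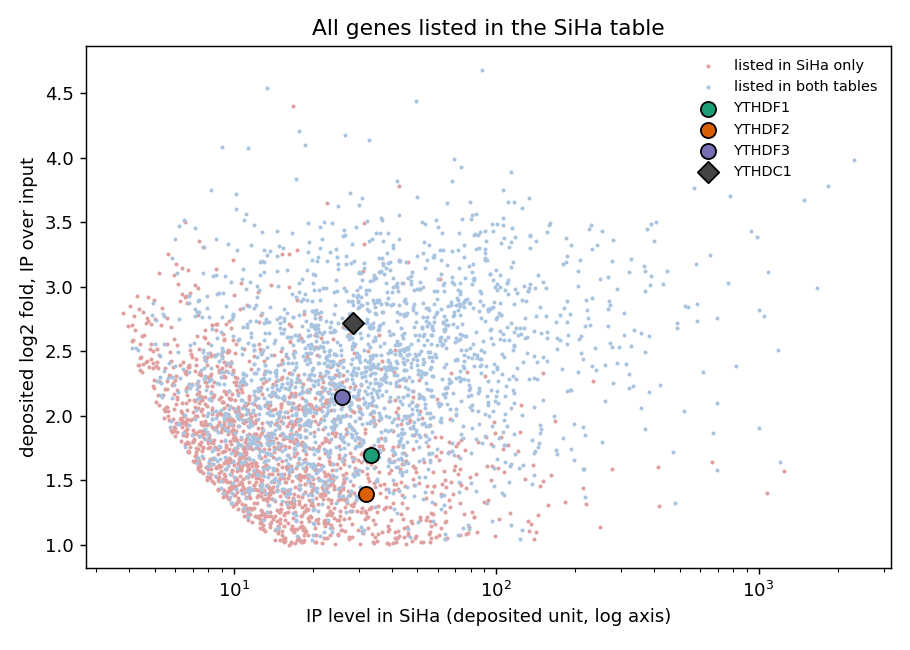
Each point is a gene of the SiHa table, with its IP level on a log axis and its deposited log2 fold; pale red points are in the SiHa table only and pale blue points in both tables. YTHDF3 lies at the middle of the folds (2.14), YTHDF1 (1.69) and YTHDF2 (1.39) lie in the lower part, and YTHDC1 (2.72) lies above all 3.

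Pseudogene copies could draw reads from these genes. RefSeq places the pseudogenes YTHDF1P1 on chromosome 5, YTHDF2P1 on chromosome 14 and YTHDF3P1 on chromosome 3, spanning 2033, 2096 and 209 bases. None of the 3 was in either table, and the handling of reads that match several places is not stated by the labels. No other RefSeq gene overlaps YTHDF1, YTHDF2 or YTHDF3 (0 for each). The non-coding gene YTHDF3-DT, which starts beside YTHDF3, was in neither table.

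None of the YTHDF genes was in the knockout table. As read from its values, the thresholds of that table were a deposited 2-fold enrichment, which equals an IP to input ratio of 1.14, and a p-value that reached 0.0498. The lowest input level of any listed gene was 1.001 in the knockout and 1.07 in SiHa. Levels equal to those in SiHa would have cleared the fold threshold of the knockout table for all 3 genes, since with the knockout's constant the log2 folds would be 1.95 for YTHDF3, 1.50 for YTHDF1 and 1.197 for YTHDF2. The knockout table also lists genes that passed on less. For YTHDF3, 128 listed knockout genes had an IP level no higher and an input level no lower than those of YTHDF3 in SiHa. For YTHDF1 there were 21 such genes and for YTHDF2 there were 5. The tables were normalised separately, and scaling the knockout levels to SiHa over the genes listed in both raised these counts to 227, 96 and 30. That scaling multiplied knockout inputs by 1.45 and knockout IP levels by 1.14. Raising inputs more than IP levels favours higher counts by construction, so nothing further is read from the rise. The 3 genes were therefore either untested in the knockout or had other levels there than in SiHa, in the unit of the tables. This reading takes it that genes of like levels get similar p-values whatever their length, which was not tested. A lower IP level, a higher input level and a gene left untested cannot be told apart, and the remaining amount of YTHDF3 transcript in these cells is not measured by its absence.

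At the SiHa input levels, the fold threshold of the knockout table equals an IP level of 13.4 for YTHDF3, 23.5 for YTHDF1 and 27.7 for YTHDF2. Knockout genes with a similar input show the IP levels that listed genes had. Among the 348 listed knockout genes whose input was within 1.2-fold of the SiHa input of YTHDF3, the lowest IP level was 13.0 and the median 31.8, beside 25.8 for YTHDF3 in SiHa. For YTHDF1 the lowest was 20.4 and the median 46.9 over 181 genes, beside 33.2. For YTHDF2 the lowest was 24.4 and the median 49.9 over 147 genes, beside 31.8. Each SiHa IP level thus lay between the lowest and the median IP level of listed knockout genes of like input. The lowest level follows largely from the fold threshold. SiHa and knockout inputs were matched here without the scaling given above, so nothing further is read from this position. The lowest levels fall under the threshold levels above because the window includes genes of lower input, so they are not the levels needed.

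**Figure D3:**
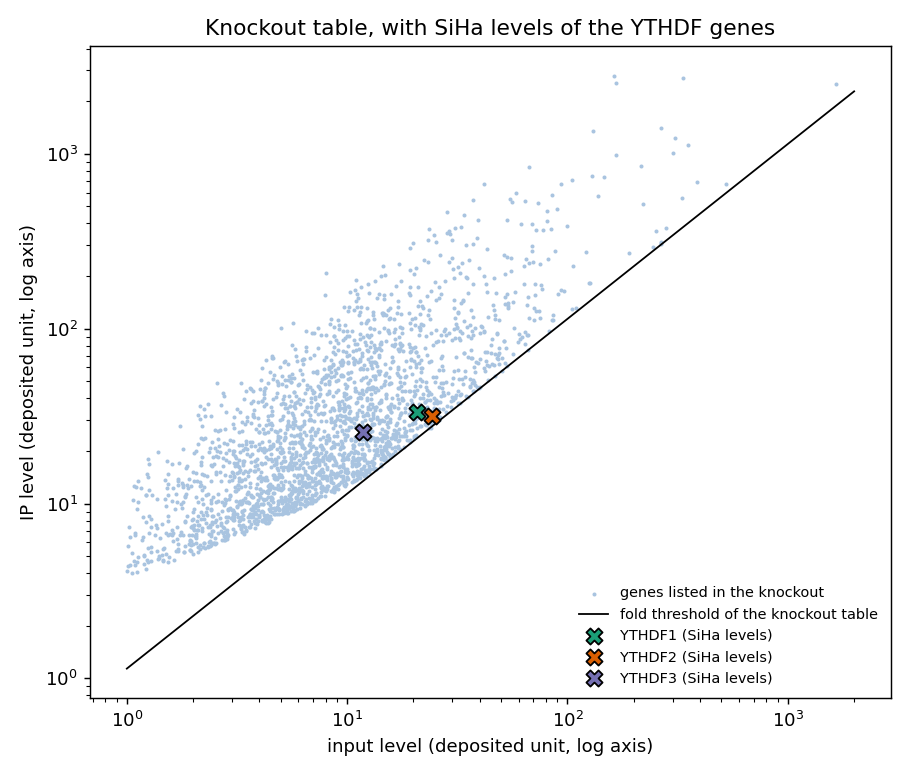
Pale blue points are the genes of the knockout table by input and IP level, both on log axes, and the line is that table's fold threshold (an IP to input ratio of 1.14). Crosses mark the levels that the YTHDF genes had in SiHa, without scaling. All 3 lie above the line and among listed genes, YTHDF2 closest to the line.

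How often other genes of like fold were listed in the knockout differed along the SiHa table. The share was 16.2% in the lowest decile of folds and 91.2% in the highest. It was 32.1% in the decile that holds YTHDF2, 38.6% in that of YTHDF1 and 59.2% in that of YTHDF3. Absence from the knockout was therefore the more common outcome at the folds of YTHDF1 and YTHDF2, and the less common one at the fold of YTHDF3. With genes grouped into quartiles of fold and of IP level, the share was 63.5% of 197 genes in the group of YTHDF1, 28.0% of 243 in that of YTHDF2 and 81.3% of 251 in that of YTHDF3. In quintiles instead of quartiles these shares were 60.0%, 25.9% and 62.3%. With either grouping, YTHDF2 was in a group where most genes were missing from the knockout, and YTHDF1 and YTHDF3 were in groups where most were present. These shares describe the tables and are not a test of the 3 genes.

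**Figure D4:**
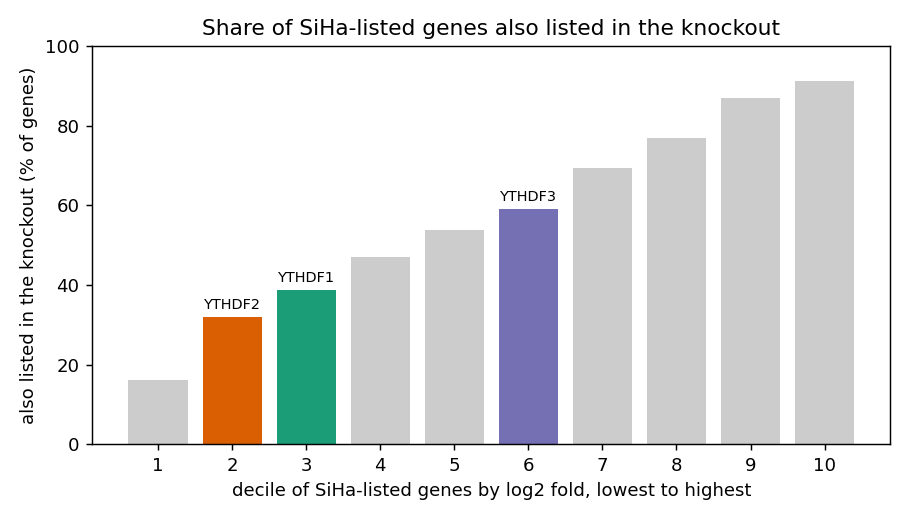
SiHa-listed genes in deciles of deposited log2 fold from lowest (1) to highest (10), and the percent of each decile also listed in the knockout. Coloured bars hold the YTHDF genes: 32.1% for YTHDF2, 38.6% for YTHDF1 and 59.2% for YTHDF3.

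The genes with the most similar levels were named by the distance in log2 IP and log2 input level over the 2 SiHa libraries. Nearest to YTHDF1 were GLYR1, RALGAPB and BRIX1, at distances of 0.013 to 0.033. GLYR1 stood at 33.0 in the IP and 20.6 in the input of SiHa, and at 18.3 and 11.6 in the knockout. BRIX1, a ribosome assembly factor, stood at 33.9 and 20.9 in SiHa and at 33.5 and 15.9 in the knockout. RALGAPB was not in the knockout table.

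Nearest to YTHDF2 were PIK3C2A, GARS and PSMD4. PIK3C2A, a lipid kinase, stood at 31.4 in the IP and 24.5 in the input of SiHa, and at 40.0 and 30.8 in the knockout. PSMD4, the ubiquitin receptor of the proteasome, stood at 33.4 in the IP and 21.9 in the input of the knockout, whereas the glycyl-tRNA synthetase gene GARS was not listed there. Nearest to YTHDF3 were IGBP1, PANK3 and SP2. IGBP1 stood at 26.3 in the IP of SiHa and 24.2 in that of the knockout, beside inputs of 11.7 and 11.96. SP2, a transcription factor, stood at 25.7 and 12.2 in these IP libraries, beside inputs of 11.4 and 5.07. PANK3, a pantothenate kinase, was not in the knockout table. In all, 6 of these 9 genes were listed in the knockout, 2 of 3 for each YTHDF gene, near the 57.1% of all SiHa-listed genes that were, so nothing is read from this count.

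Of the other YTH proteins, YTHDC1, the nuclear m6A reader (ENSG00000083896, chromosome 4, positions 68310387 to 68350090 of GRCh38.p14), was listed in both tables. It stood at 8.72 in the input and 28.5 in the IP of SiHa, and at 5.13 and 39.8 in the knockout. The IP level exceeded the input in each cell line, which being listed nearly requires, and by more in the knockout. Its log2 fold in the authors' deposited tables was 2.72 in SiHa, 616th of 3648, and 3.77 in the knockout, 282nd of 2340. In SiHa it stood 0.57 above YTHDF3. The difference of 1.05 between the cell lines is set across separately normalised tables and rests on 4 single libraries. YTHDC2, the YTH protein with a helicase domain, was in neither table. Of the 5 YTH genes, 1 was therefore listed in the knockout, where 21.2% of all tested genes were, and 4 in SiHa, where 27.0% were.

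The m6A writers, which deposit the mark that YTHDF proteins read, had 8 of 9 genes listed in SiHa, beside 27.0% of all tested genes, and 5 of 9 in the knockout, beside 21.2%. The scaffold ZC3H13 led the list in both of the authors' deposited tables, at 3.23 and 4.20 on the log2 scale. VIRMA, another scaffold of the complex, stood at 2.86 and 3.54, and WTAP, its regulatory subunit, at 2.12 and 2.19. METTL14, the partner of the catalytic subunit, stood at 2.29 and 3.57, although in SiHa its adjusted p-value in the authors' deposited table was 0.103. RBM15, RBM15B and METTL16 were in the SiHa table only. The authors' deposited table gives them log2 folds of 1.67, 1.53 and 1.74, against 1.69 for YTHDF1 and 1.39 for YTHDF2. CBLL1, at a similar 1.80 in SiHa, was also listed in the knockout, at 1.83 in the authors' deposited table. METTL3, the catalytic subunit, and the erasers FTO and ALKBH5 were in neither table. Over the 5 writers in both of the authors' deposited tables the median log2 fold was 2.29 for SiHa and 3.54 for the knockout. Over all 2083 genes listed in both, the medians were 2.32 and 2.49. The SiHa median of the writers is the value of METTL14, and WTAP and CBLL1 differed little between the tables. The tables were normalised separately and rest on single libraries, so the difference was not tested.

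Among 16 genes of CCR4-NOT and other decay partners of YTHDF2, 7 were listed in SiHa (27.0% of all tested genes), 5 in the knockout (21.2% of all tested genes) and 4 in both. RPP38, a subunit of RNase P and MRP, and the CCR4-NOT subunit CNOT3 had log2 folds in the authors' deposited tables of 2.86 and 2.84 for SiHa and 3.45 and 3.40 for the knockout. CNOT1, the CCR4-NOT scaffold that YTHDF2 contacts, stood at 205 in the IP and 81.5 in the input of SiHa and at 68.3 and 36.9 in the knockout. The deadenylase subunit CNOT6L was in the SiHa table only, where the authors' deposited table has it at a log2 fold of 1.83. POP1, another RNase P subunit, was in the knockout table only, at an adjusted p-value of 0.14 in the authors' deposited table. The 4 decay genes in both tables had medians of 2.59 for SiHa and 2.80 for the knockout.

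Of 17 genes of translation initiation, the partners named for YTHDF1 and YTHDF3, 11 were listed in SiHa and 8 in the knockout, all 8 in both, against the same 27.0% and 21.2% of all tested genes. The eIF3 subunit genes EIF3C and EIF3A led this list in the authors' deposited tables with log2 folds of 3.33 each for SiHa and 4.22 and 4.32 for the knockout. EIF3C has a near-identical copy in the genome, EIF3CL, so its value is uncertain. EIF4G1, the scaffold of the cap-binding complex, followed at 2.70 and 3.16, and EIF3G at 2.55 and 2.08. The 8 genes in both had medians of 2.54 and 2.64. The stress granule genes had 7 of 9 listed in SiHa and 5 in the knockout, again beside 27.0% and 21.2% of all tested genes. They were led by CAPRIN1 at 2.97 and 2.84, UBAP2L at 2.52 and 1.78, ATXN2 at 2.31 and 2.44 and G3BP2 at 2.19 and 2.51 in the authors' deposited tables. The 5 in both had medians of 2.31 and 2.44.

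The non-YTH m6A readers had 5 of 10 genes listed in SiHa and 4 in the knockout, beside 27.0% and 21.2% of all tested genes, with 2, PRRC2A and FMR1, in both. The adjusted p-value of FMR1 in the authors' deposited tables was 0.104 for SiHa and 0.0449 for the knockout. IGF2BP2, which stabilises marked mRNAs, was in the SiHa table only, at 1.52 in the input and 6.15 in the IP. That input is near the lowest listed in SiHa, 1.07, and the deposited adjusted p-value was 0.0345. ELAVL1 was also in the SiHa table alone, with a log2 fold of 1.13 and an adjusted p-value of 0.131 in the authors' deposited table. HNRNPC and FXR1 were in the knockout table only, and the authors' deposited table gives log2 folds of 1.18 and 1.54, the latter at an adjusted p-value of 0.0508.

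**Figure D5:**
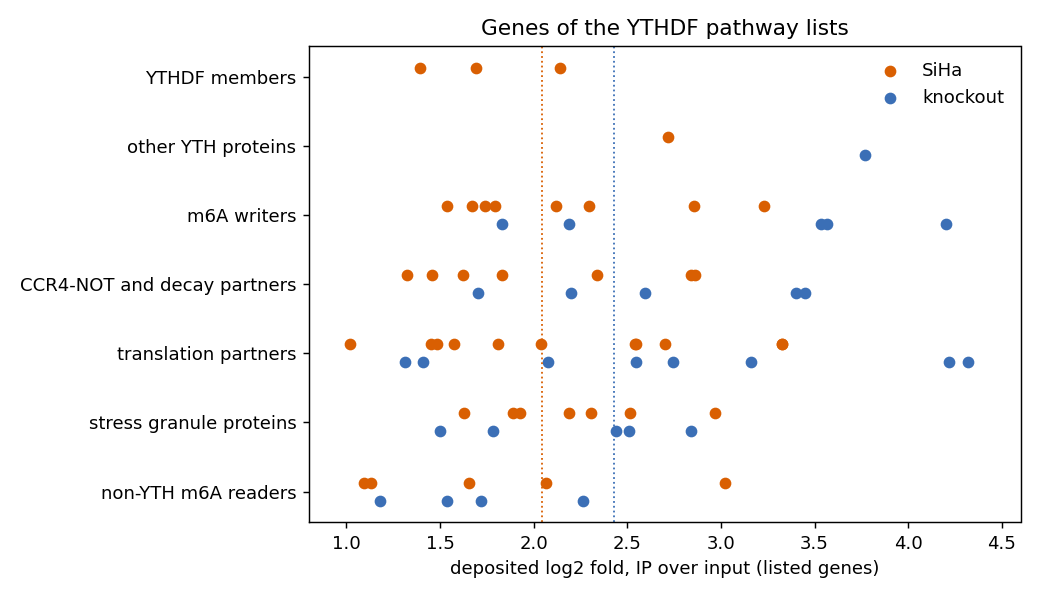
Deposited log2 fold of each listed gene of the YTHDF pathway lists in SiHa (orange) and the knockout (blue); dotted lines are the medians over all listed genes, 2.04 and 2.43. Every list shown but the YTHDF genes has points in both cell lines. The YTHDF list holds 3 genes, and 42.9% of all SiHa-listed genes are missing from the knockout, so nothing is read from this. The erasers, with no listed gene, are left out.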

How the data were processed

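A stranded mRNA kit was used for all RIP-seq libraries, per the labels' protocols. FastQC 0.11.7 and the builds GRCh38 and hg38 are named, per the submitters' processing notes; the labels do not state the aligner, the counting, the use of strand or the test. The authors deposited 1 table per cell line, with a log2 fold, a p-value and an adjusted p-value per gene, and the level of the gene in the IP and input library, treated here as a signal of unknown unit. The column without the word input was taken as the IP; its lane is not the one in the sample's title, or the title gives none, so all IP levels carry this doubt. The deposited log2 fold equals log2 of IP over input level plus a constant in every row.

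The number of genes tested is the smallest for which p times that number over the adjusted p is a whole rank, read over p-values above 1e-04; this step was tested on simulated data. Genes were matched by symbol, and locations came from RefSeq. Named genes were the YTHDF genes and the 3 nearest protein-coding genes of each. By SiHa fold, the leading 4 or fewer of each pathway list were also named, plus those listed in the knockout only. RBM15, RBM15B, METTL16, CBLL1, METTL3, the erasers and the cell markers were named outside this rule and chosen after their values were seen. The members, lists and rule were chosen with earlier results of these data known. Alternatives changed the constant, centring, a pseudocount, the genes ranked and the thresholds. Python 3.11.15, pandas 2.3.3 and numpy 2.4.6 were used. Protein and transcript sequences were not used here.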

Additional observations from a re-analysis of the deposited data

How the results depend on the processing

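Each value rests on single libraries whose depth is unknown, so differences of any size have no error here. Without the constant the log2 of IP over input was 0.69 for YTHDF1, 0.38 for YTHDF2 and 1.13 for YTHDF3. The fold threshold of the SiHa table equals an IP to input ratio of 0.996. A value above 0 is therefore nearly fixed by being listed and tests nothing. With the constant and a pseudocount of 1 the log2 fold was 1.67, 1.38 and 2.08. Relative to the median of the listed genes it turned to -0.35 for YTHDF1 and -0.65 for YTHDF2 and was 0.10 for YTHDF3, which by construction says only on which side of the median listed gene each lies. The share of listed genes with a lower fold was 28.6%, 12.1% and 55.4% for YTHDF1, YTHDF2 and YTHDF3. Among genes at or above the median IP level it was 25.2% for YTHDF1, 12.6% for YTHDF2 and 46.1% for YTHDF3. The share of all listed genes with a larger p-value in the authors' deposited table was 59.5%, 49.2% and 61.2%. Of the YTHDF genes, 3 were listed in SiHa with an adjusted p-value of at most 0.05. With a log2 fold of at least 2, which 14.2% of tested genes had while being listed, 1 remained. The count was also 1 for a log2 ratio of at least 1 without the constant. The knockout count could only stay at 0 under these stricter thresholds, which therefore test nothing there. The grouping in quintiles and the rescaling of knockout levels were chosen after seeing the data. No paired analysis was possible because each group is 1 library.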
